A study of Rattus norvegicus with 4 samples.

Results

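The genes described here encode the enzymes that make superoxide in phagocytes and those that remove it: 5 genes of the phagocyte NADPH oxidase (Cybb, Cyba, Ncf1, Ncf4 and Rac2), the superoxide dismutase genes Sod1 and Sod2, and the catalase gene Cat. They were chosen by name, with earlier results of these data known. An array probe was taken for a gene when its RefSeq accession mapped to the gene's symbol in the rat RefSeq table. All 8 genes had a probe, 9 probes in all, among 16581 genes that could be named in this way. Their transcripts were measured in NR8383 cells, an established macrophage line derived from rat lung lavage, which had been passaged 20 times, seeded for 48 h and exposed for 4 h to NiZnFe2O4, a mixed oxide of iron with nickel and zinc, given at 9.25 µg/mL. RNA from 4 biological replicates was hybridised to 4 one-colour arrays, one for each replicate. The design names untreated cells as the control, and their arrays were not analysed here. Every value below is therefore a level in exposed cells or a spread between exposed replicates, no test between conditions was possible, and nothing below is a response to the particles.

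Phagocytes use the NADPH oxidase to kill ingested microbes. The membrane subunits gp91phox, encoded by Cybb, and p22phox, encoded by Cyba, form a flavocytochrome that passes electrons from NADPH to oxygen and so makes superoxide. It is silent until cytosolic subunits, among them p47phox (Ncf1) and p40phox (Ncf4), and the small GTPase Rac2 join it at the membrane. Superoxide dismutases turn superoxide into hydrogen peroxide, the copper and zinc enzyme Sod1 in the cytosol and the manganese enzyme Sod2 in mitochondria, and catalase breaks hydrogen peroxide down in peroxisomes.

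All 8 genes passed the background flag on every array, where the extraction software calls a spot well above background. Over all named genes the same rule was met by 6418 of 16581, or 38.7%. Because the 8 genes were chosen with earlier results known, this share is a description only and was not tested against theirs. The 8 genes differed in how far their spots stood above their own surroundings and in how steady they were. The Cyba spots of an array were on average 1135 or more times as bright as their local background, whereas those of Cybb and Cat were at most 3.08 and 2.84 times as bright. With arrays scaled to their 75th percentile, Cat had the largest SD between replicates, 0.82 log2 units, and Rac2 the smallest, 0.11. This order turned with the scaling: unscaled SDs were 0.55 for Cat, 0.59 for Cybb and 0.60 for Ncf1, and with the normexp background correction Ncf1, Sod1 and Sod2 exceeded Cat. That correction adds an offset of 50 units, which narrows log2 differences most in faint spots such as those of Cybb and Cat. Brightness also depends on the sequence of a probe, so it does not rank the transcripts of different genes.

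Sequences upstream of 3 genes are shown because their spots differed most: Cybb and Cat, whose spots were faintest against their own background and whose scaled levels had the largest SDs, and Cyba, the partner of Cybb, whose spots were brightest against theirs. Each is the 250 bases before the annotated start, from RefSeq on the assembly GRCr8, read 5′ to 3′ on the strand of the gene. Capitals mark matches on either strand to GAGGAA, which contains the core bound by ETS factors such as PU.1, to the CCAAT box, to the GC box with the letters GGGCGG and to the TATA box with the letters TATAAA.
Cybb, chrX:16065066-16065315, minus strand: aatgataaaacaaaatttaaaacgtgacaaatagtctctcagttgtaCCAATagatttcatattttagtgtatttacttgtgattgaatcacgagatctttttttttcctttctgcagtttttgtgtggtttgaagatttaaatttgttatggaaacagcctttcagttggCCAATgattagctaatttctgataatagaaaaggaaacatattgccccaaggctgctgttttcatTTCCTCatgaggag
Cyba, chr19:67404215-67404464, minus strand: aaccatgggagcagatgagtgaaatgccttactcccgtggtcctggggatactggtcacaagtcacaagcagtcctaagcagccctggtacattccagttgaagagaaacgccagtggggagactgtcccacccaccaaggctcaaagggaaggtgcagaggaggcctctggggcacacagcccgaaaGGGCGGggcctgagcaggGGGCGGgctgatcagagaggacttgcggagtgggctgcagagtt
Cat, chr3:110329527-110329776, minus strand: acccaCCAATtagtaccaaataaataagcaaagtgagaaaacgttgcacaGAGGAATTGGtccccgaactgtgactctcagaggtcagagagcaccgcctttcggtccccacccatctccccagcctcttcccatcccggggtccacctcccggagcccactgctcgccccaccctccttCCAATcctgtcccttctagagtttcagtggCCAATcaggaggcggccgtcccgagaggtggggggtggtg

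The Cybb window was 32% G and C, with GAGGAA on the reverse strand starting 14 bases before the start and 2 CCAAT boxes. The Cyba window was 59.6% G and C, with 2 GC boxes and none of the other motifs. The Cat window was 58.8% G and C and held 4 CCAAT boxes, one of which overlaps its GAGGAA by the shared A. The promoter table held 6 of the 8 genes, Cybb, Cyba, Ncf1, Sod1, Sod2 and Cat. GAGGAA was found in 2 of these 6 (Cybb and Cat) against 23.3% of all 33469 promoters in the table, and CCAAT in 3 (Cybb, Sod1 and Cat) against 34%. GGGCGG was found in 4 (Cyba, Ncf1, Sod1 and Sod2) against 30.5%, and TATAAA in Sod1 alone against 12.9%. These matches describe letters in a window and not binding.

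A level below is the log2 signal of a probe minus the 75th percentile over all probes of its array, so that 0 stands for that percentile. Before this scaling the arrays differed as a whole, with 75th percentiles of 5.38, 5.03, 4.55 and 4.63 log2 units on replicates 1 to 4. Of 58717 spots for rat transcripts per array, between 21812 and 24981 passed the background flag, and no spot was saturated. Error bars and errors of single spots are the estimates of the extraction software for the processed signal. The number of arrays limits the precision of every mean.

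**Figure D1:**
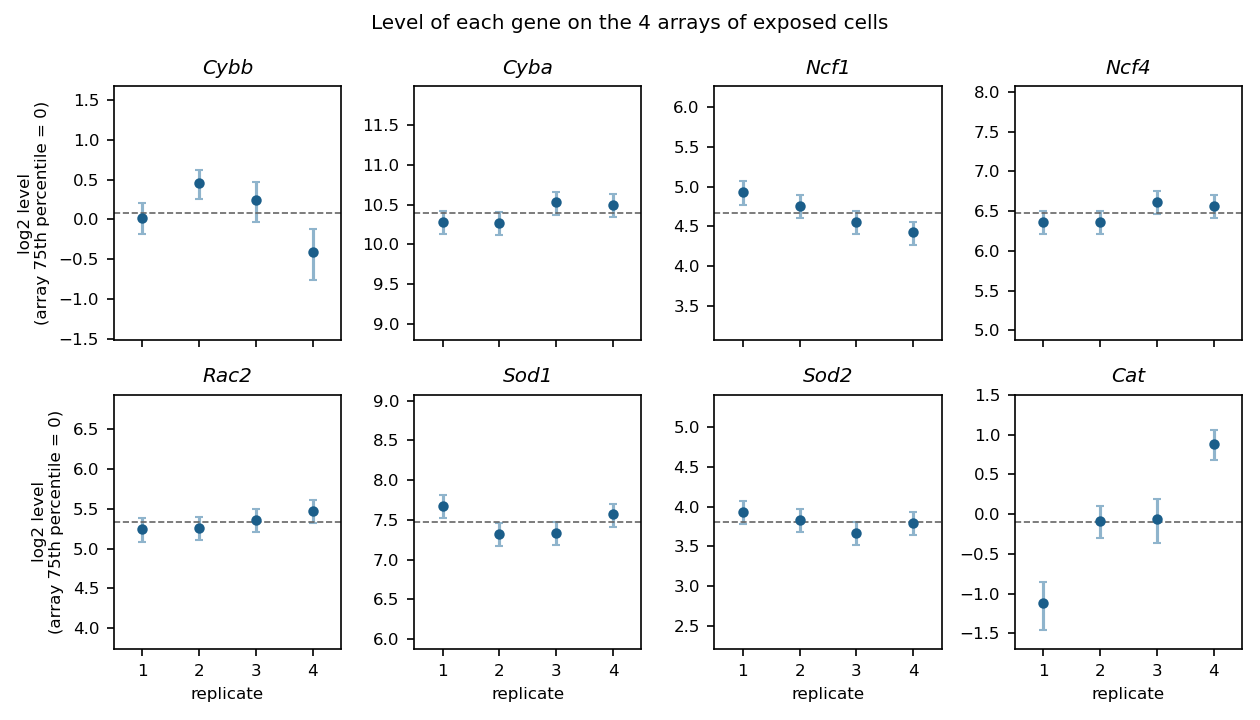
Log2 level of the 8 genes on each array (x axis, replicate; y axis, log2 level with the array's 75th percentile at 0; every panel spans the same number of log2 units around the gene's mean, dashed). Points are arrays and bars the software's spot error. Cat runs between -1.12 on replicate 1 and 0.88 on replicate 4, and Cybb between -0.41 and 0.45, while the other genes stay close to their means.

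Cybb, the catalytic subunit, was faint. Its processed signals were 42.3 ± 5.56, 44.8 ± 5.56, 27.8 ± 4.73 and 18.7 ± 4.10 intensity units on replicates 1 to 4 (± the spot error). Replicates 1 and 2 were higher than replicate 3, and replicate 4 was the lowest. The local background was 26 units on replicates 1, 2 and 4 and 25.5 on replicate 3. Spot brightness over local background was 3.04, 3.08, 2.39 and 2.08. After scaling its level was 0.08 ± 0.37 (SD, n = 4), with replicate 2 the highest at 0.45 and replicate 4 the lowest at -0.41, a span of 1.81-fold. The spot error on replicate 4 was 21.9% of the signal, against 12.4% on replicate 2. Without replicate 4 the SD of Cybb was 0.22.

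Cyba, whose product stabilises gp91phox and anchors the cytosolic subunits, was printed in 10 spots per array. The means of its spots, taken on the log2 scale, were 51765, 40289.6, 34687 and 35725 intensity units on replicates 1 to 4. Replicate 1 was the highest before scaling, as it was for 6 of the 8 genes. Scaled levels were 10.28, 10.27, 10.53 and 10.49, a mean of 10.39 ± 0.14 (SD, n = 4) and a span of 1.20-fold. The genes for the subunits of the flavocytochrome had SDs of 0.37 for Cybb and 0.14 for Cyba, but 0.13 and 0.14 with the normexp correction, and the difference was not tested.

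The repeated spots show the precision of one array. Within an array the Cyba spots that were used had SDs of 0.08, 0.10, 0.05 and 0.12 log2 units, so the standard error of an array's mean was at most 0.04. The SD between arrays was 0.14, larger than each of these, but below the largest of them at 0.0746 under quantile normalization and 0.0771 when detected probes alone set the percentile. On replicate 2 the software gave an outlier flag to 3 of the 10 Cyba spots, and these were left out. One of them, in row 196 and column 92, had 25865 units, and the other spots of that array lay between 36426 and 42707. It was 0.62 log2 units below the median Cyba spot of that array. Around it, within 10 rows and 10 columns, 53 probes with a single spot had a median deviation of -0.47 on replicate 2. The remaining flagged spots had 39786 and 39849.7 units, close to the array's mean. The spot in row 196 was also the lowest of the 10 on the other arrays, at -0.16, -0.08 and -0.30 log2 units from the median Cyba spot on replicates 1, 3 and 4. There its neighbours deviated by 0.07, 0.13 and -0.0026. With all flagged spots kept, the mean Cyba level was 10.37 in place of 10.39.

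**Figure D2:**
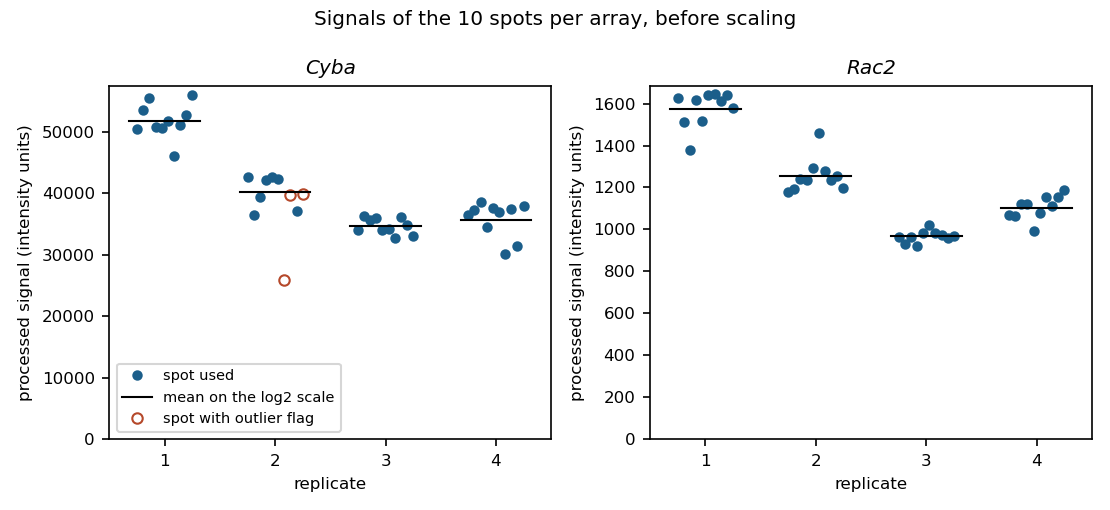
Processed signal in intensity units of the 10 Cyba spots (left) and the 10 Rac2 spots (right) on each array, before scaling. Filled points were used, open points carry an outlier flag, and lines are means on the log2 scale; one Cyba spot on replicate 2 lies at 25865 units, below the other spots of that array.

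Ncf1, which encodes the organiser subunit p47phox, had 2 probes, and they disagreed. The brighter probe gave 1268, 883, 554 and 531 intensity units on replicates 1 to 4 and the dimmer one 80.5, 73.4, 59.9 and 68.7. Scaled levels of the brighter probe were 4.93, 4.76, 4.56 and 4.42, so replicate 1 was its highest array and replicate 4 its lowest. Those of the dimmer probe were 0.95, 1.17, 1.35 and 1.47, with the opposite order. Before scaling both probes were highest on replicate 1, so the opposite order came with the scaling. The means were 4.67 ± 0.22 for the brighter and 1.24 ± 0.23 for the dimmer probe (SD, n = 4 each). The gap between them was 3.98, 3.59, 3.21 and 2.95 log2 units on the 4 arrays, a mean of 3.43 ± 0.45 (SD, n = 4). This gap is the same with and without the scaling. Averaging both probes gave an SD of 0.00907 because their deviations cancel, and that value does not describe either. Which transcript forms the probes bind was not analysed here, so neither order can be preferred.

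**Figure D3:**
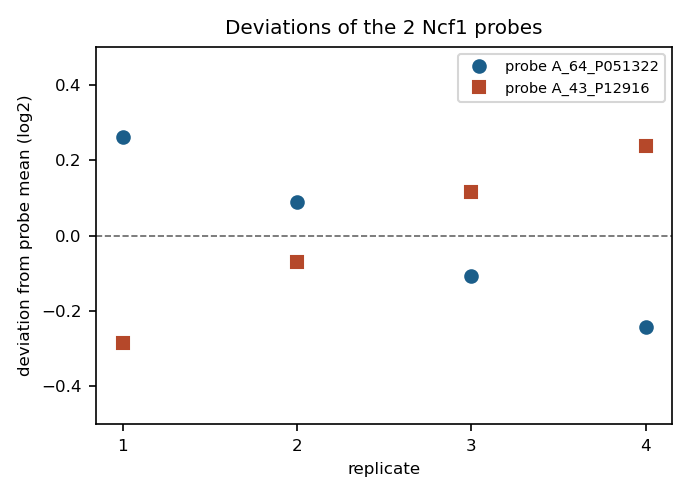
Deviation of the scaled level of each Ncf1 probe from its own mean (y axis, log2 units) on each array (x axis, replicate). The probe standing for the gene, the brighter one, is 0.26 above its mean on replicate 1 and 0.24 below it on replicate 4, and the dimmer probe runs the other way, at -0.28 and 0.24.

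Ncf4, which encodes p40phox, the subunit that binds phosphatidylinositol 3-phosphate on phagosomes, was steady. Its signals were 3438, 2685, 2298 and 2336 intensity units, and its scaled levels 6.37, 6.36, 6.61 and 6.56 on replicates 1 to 4. Replicates 3 and 4 were the higher ones after scaling, with a mean over all arrays of 6.47 ± 0.13 (SD, n = 4) and a span of 1.19-fold. Cyba showed the same division, lower on replicates 1 and 2 than on 3 and 4. The deviations of Ncf4 and Cyba from their means differed by a root mean square of 0.0104 log2 units over the 4 arrays, the smallest among the 28 pairs of the 8 genes. Leaving out the scaling, or taking the percentile over detected probes, moves all probes of an array alike and cannot change this value. It was 0.0362 with flagged spots kept, 0.0419 with the local trend removed, 0.0476 with normexp and 0.11 with quantile normalization. Under quantile normalization the pair was not the closest, since Sod1 and Sod2 differed by 0.0832. With 4 arrays, no correlation is given.

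Rac2, the Rac GTPase of blood cells, also had 10 spots per array and none was flagged. Mean signals were 1575, 1254, 967 and 1104 intensity units, and scaled levels 5.24, 5.26, 5.36 and 5.48. Replicate 4 was the highest array after scaling and replicate 1 before it. The spots within an array had SDs between 0.04 and 0.09 log2 units. The mean was 5.34 ± 0.11 (SD, n = 4), and the SD was 0.0649 when replicate 4 was left out. The related gene Rac1, expressed in most tissues, had an SD of 0.55 around a level of 4.01. Whether the Rac2 probe also binds Rac1 transcripts was not tested.

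The superoxide dismutase genes were well measured. Sod1 gave 8508, 5235, 3780.4 and 4695 intensity units on replicates 1 to 4, and its lowest brightness over background was 140-fold. Scaled levels were 7.67, 7.32, 7.33 and 7.57, a mean of 7.47 ± 0.18 (SD, n = 4), with replicates 1 and 4 above replicates 2 and 3. Sod2, the mitochondrial enzyme gene that inflammatory signals raise in many cell types, gave 638, 467, 298 and 345 units. Its scaled levels were 3.94, 3.84, 3.67 and 3.80, a mean of 3.81 ± 0.11 (SD, n = 4). Replicate 1 was the highest array and replicate 3 the lowest for Sod2, and without replicate 3 its SD was 0.0713. Both dismutase genes were highest on replicate 1, and the root mean square difference of their deviations was 0.11 log2 units.

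Cat had the largest SD of the 8 genes under the percentile scaling, though not without scaling or with normexp. Its signals were 19.1 ± 3.94, 30.7 ± 4.27, 22.6 ± 4.31 and 45.5 ± 5.84 intensity units on replicates 1 to 4 (± the spot error). Replicate 4 was the highest and replicate 1 the lowest, unlike most of the other genes, whose unscaled signals were highest on replicate 1. Scaled levels were -1.12, -0.09, -0.06 and 0.88, a mean of -0.10 ± 0.82 (SD, n = 4). Replicates 2 and 3 lay together and replicates 1 and 4 about as far below and above them, a span of 4.01-fold after scaling and 2.38-fold before it. This SD was larger than that of 99.1% of the 6417 genes whose chosen probe passed on every array.

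The Cat values were close to background, and part of the span comes with the scaling, which divides replicate 1 by the largest percentile. The median brightness of the spot exceeded that of its background by 32, 36, 25 and 59 units. By this difference replicate 3, not replicate 1, was the lowest. Brightness over background was 2.10, 2.13, 1.81 and 2.84. Spots near the Cat spot had median deviations between -0.10 and 0.10 log2 units on the 4 arrays. Cat itself deviated by -1.03 on replicate 1 and 0.98 on replicate 4, and by 0.01 and 0.04 on replicates 2 and 3. The deviations of single neighbours were not examined, and a median over 62 of them says little about how far each one deviates. The level of Cat was lowest on replicate 1 and highest on replicate 4 in each of the 6 other scalings and corrections tried, removal of the local trend included. With the normexp correction, whose offset narrows log2 differences in faint spots, the SD of Cat was 0.27. That was below those of Ncf1, 0.42, Sod1, 0.41, and Sod2, 0.29. In these cultures, fewer cells with a transcript and less transcript per cell cannot be told apart.

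The genes with a profile most like that of Cat over the 4 arrays were Lims1, which encodes the focal adhesion adaptor PINCH1, Adgre5, which encodes the leukocyte receptor CD97, and Mgll, which encodes monoacylglycerol lipase. Their deviations differed from those of Cat by root mean squares of 0.13, 0.14 and 0.15 log2 units, the smallest of 6409 genes outside the 8. Lims1 deviated by -1.04, 0.22, -0.02 and 0.84 from its mean on replicates 1 to 4. A likeness over 4 arrays, picked from so many genes, is given as a description only.

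The 8 genes did not deviate alike. On replicate 1, 3 of the 8 lay above their own mean, on replicate 2, 4, and on replicates 3 and 4, 5 each. Over all 6417 genes 41.0%, 47.7%, 53.7% and 60.2% did. The median deviation of the 8 genes was -0.08, -0.03, 0.03 and 0.09, beside -0.06, -0.01, 0.02 and 0.06 for all genes. The small shift of the 8 genes from array to array thus ran the same way as that of all genes. Cybb and Cat ran against each other on replicate 4, where Cybb was 0.48 log2 units below and Cat 0.98 above its mean.

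The median SD of the 8 genes was 0.16 log2 units, beside 0.23 for the 6417 genes. These SDs rest on the scaling between arrays: with quantile normalization that of Rac2 was 0.0252, and without scaling that of Ncf1 was 0.60. Under the percentile scaling Cat alone had an SD above 0.5, as had 5.73% of all genes. Without scaling Cybb, Ncf1 and Cat had one, and with normexp none of the 8 did. For 458 genes with levels within 0.25 log2 units of those of Cybb and Cat, the median SD was 0.29 and 50 had an SD above 0.5. Cybb, at 0.37, lay between the 10th and 90th percentiles of that dim group, 0.14 and 0.51, and Cat, at 0.82, above them. No array stood apart from the other 3 by Dixon's ratio at its 95% critical value in any of the 9 probes, where 4.91% of all genes exceeded it. The highest ratio was 0.52, for Cat.

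**Figure D4:**
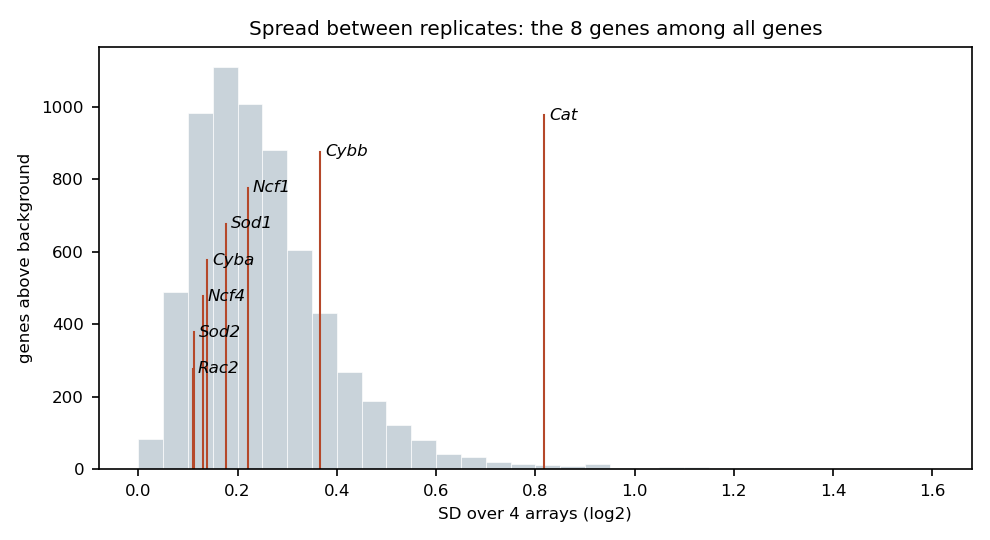
SD over the 4 arrays (x axis, log2 units, arrays scaled to their 75th percentile) of all 6417 genes whose chosen probe passed the background flag on every array (grey, y axis number of genes), with the 8 genes as labelled lines whose heights carry no value. The other 6 lie at 0.22 or below, Cybb at 0.37, and Cat at 0.82 in the right tail.

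The remaining parts of the oxidase were partly measured. Beside the counts in this and the following lists, 38.7% of all named genes passed on every array. The voltage-gated proton channel gene Hvcn1 was matched by no probe through the accessions. Rac1 and Cybc1, the chaperone gene needed for gp91phox in human and mouse, passed the background flag on every array, with levels of 4.01 ± 0.55 and 3.42 ± 0.28 (SD, n = 4 each). Rap1a, a small GTPase that associates with the flavocytochrome, passed on replicates 1 and 2 only. Of 11 measured genes that act on assembly, 8 passed on every array and 3 on none. Prkcd, a kinase that phosphorylates p47phox, stood at 5.41 ± 0.22, and Arhgdib, which holds Rac proteins in the cytosol, at 6.68 ± 0.06 (SD, n = 4 each). The genes that failed on all arrays were Prkcb, Prex1, a Rac exchange factor, and Pik3cg. Pla2g4a, the arachidonate-releasing phospholipase, passed at -0.10 ± 0.25 (SD, n = 4).

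Oxidases of other tissues mostly did not pass. Of 8 measured genes, Nox1, Nox3, Nox4, Duox1, Duox2, Duoxa1 and Noxa1 passed on no array. Duoxa2, a maturation factor of Duox2, passed on every array at -0.31 ± 0.47 (SD, n = 4). Among the measured genes for catalytic subunits, Cybb alone passed. A probe below background sets only an upper bound, so these genes are not shown to be absent.

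Among 6 measured transcription factors known to act on the CYBB promoter in human or mouse myeloid cells, 4 passed on every array. Spi1, which encodes PU.1, stood at 3.83 ± 0.29, Irf1 at 3.31 ± 0.31, Cebpe at 2.47 ± 0.23 and Runx1 at 2.92 ± 0.17 (SD, n = 4 each). Runx1 had 2 probes, and it did not pass when every probe of a gene had to. Irf8 and the erythroid factor gene Gata1 passed on no array.

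Genes that serve the dismutases and share the work of catalase were mixed. Of 9 genes for extracellular dismutase and metal supply 5 passed on every array. Ccs, the copper chaperone of Sod1, stood at 4.05 ± 0.19, the copper chaperone gene Atox1 at 5.23 ± 0.14 and Slc39a8, a zinc and manganese importer gene, at 1.68 ± 0.37 (SD, n = 4 each). Sod3, the extracellular dismutase gene, Slc31a1, a copper importer gene, Atp7b and Slc39a14 passed on none. Of 9 other peroxide-removing genes 8 passed, the exception being Gpx3. Gpx1, a glutathione peroxidase gene, stood at 8.44 ± 0.08 and Prdx1, a peroxiredoxin gene, at 5.07 ± 0.11 (SD, n = 4 each).

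Peroxisomes import catalase after it has folded. Of 12 peroxisome import genes 8 passed on every array, among them Pex5, the import receptor, at 1.72 ± 0.22, and Pex14, a docking protein gene, at 4.52 ± 0.18 (SD, n = 4 each). Pex13 and Pex26 passed on none, and Pex3 on 1 array. Of the peroxisomal oxidase genes, which make hydrogen peroxide, Acox3 and Ddo passed on 1 array each, and Acox2, Dao, Hao1, Hao2, Pipox and Uox on none.

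**Figure D5:**
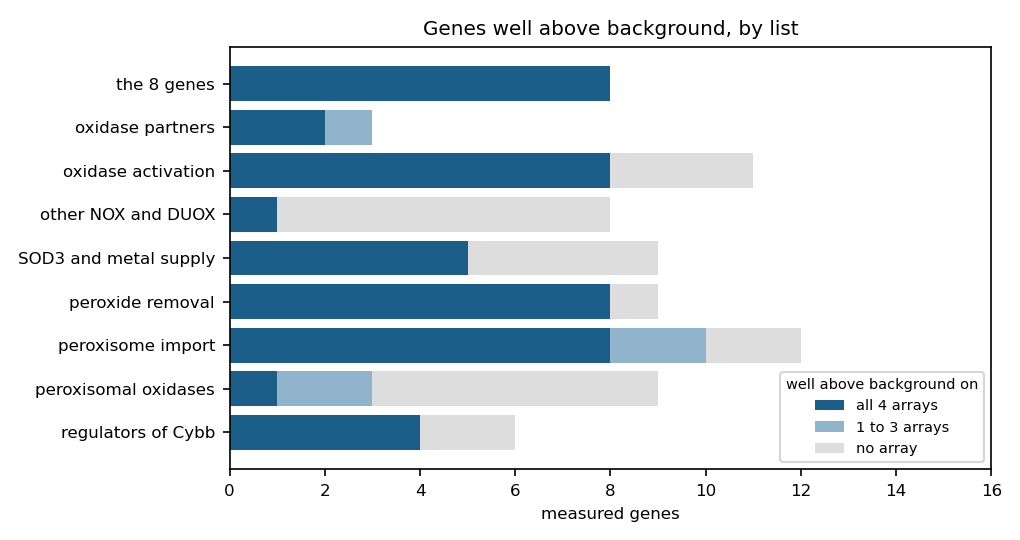
Number of measured genes (x axis) in each list that passed the background flag on all 4 arrays, on 1 to 3 arrays or on none. All 8 genes described here passed on every array, as did 8 of 9 peroxide-removing genes, against 1 of 8 other NOX and DUOX genes. The share over all named genes was 38.7%.

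Markers of the cell type were checked on the same arrays. All 12 macrophage markers passed on every array, among them Cd68 and Csf1r. Granulocytes and B cells also carry this oxidase. Of 11 granulocyte markers Camp passed on every array and S100a8 on 1, with Elane, Cxcr2 and Csf3r among the 9 that passed on none. Of the B cell markers Pax5 passed on every array, and Cd79b, Blk and Cr2 passed on none. Of 9 lung epithelial markers none passed, and of 9 fibroblast and endothelial markers Dcn, Cdh5 and Vwf did. The last share, 33.3%, was near the 38.7% of all named genes. Vwf had 2 probes, and it did not pass when every probe of a gene had to.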

How the data were processed

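RNA of 4 replicates was measured on 4 one-colour arrays. Per the submitters' processing notes, the authors' software was Agilent Feature Extraction, version 11.0.1.1. Each deposited intensity is linear, corrected for background and trend within its array per the file headers, and not scaled between arrays. The headers name the build rn4, and all 4 arrays share 1 slide and scan. Control spots and spots with an outlier flag (491 to 828 per array) were left out, and log2 signals of spots of 1 probe were averaged. A probe passed if a share of 0.5 or more of its spots carried the well-above-background flag, and a gene passed when any probe did on all 4 arrays. Of 45598 probes, 21109 mapped to 1 symbol through unversioned RefSeq accessions in the GRCr8 table. The probe with the highest mean stands for a gene.

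The members and gene lists were chosen with earlier results of these data known. Some list genes are not reported here. All 8 members are named, list genes by count and role, and for the member with the largest SD the 3 genes with the nearest profile. Alternatives were other flags, scalings and probe summaries, local trend removal over 10 rows and columns, and leaving out each replicate. Procedures were tested on simulated data. Python 3.11.15, numpy 2.4.6, pandas 2.3.3, and limma 3.58.1 in R 4.3.3 (normexp, offset 50, on median signals) were used.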

Additional observations from a re-analysis of the deposited data

How the results depend on the processing

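No paired analysis was possible because the labels give 1 group. No slide term could be fitted with 1 slide. All 8 genes passed the background flag under each of the 8 alternatives run for it. When every probe of a gene had to pass, some list counts fell, and 33.2% of all genes passed. Regulators of Cybb fell from 4 to 3, and fibroblast and endothelial markers from 3 to 2. Genes that act on assembly fell from 8 to 7, and peroxisome import genes from 8 to 6. With the looser flag, for signals positive and significant, 2 other NOX and DUOX genes, 3 peroxisomal oxidase genes, 2 granulocyte markers, 2 B cell markers and 1 lung epithelial marker passed, against 1, 1, 1, 1 and 0; 50.9% of all genes did. Levels on another scale came from the normexp correction, whose offset lifts the percentile set to 0: Cyba 8.70, Ncf1 3.13, Ncf4 4.84, Rac2 3.77, Sod1 5.77 and Sod2 2.30. The mean of both Ncf1 probes was 2.95, with an SD of 0.00907. The SD depended on the scaling. Without scaling it was 0.59 for Cybb, 0.26 for Cyba, 0.60 for Ncf1, 0.27 for Ncf4, 0.30 for Rac2, 0.49 for Sod1, 0.49 for Sod2 and 0.55 for Cat, so that Cat no longer had the largest SD; with normexp it did not either. With normexp it was 0.13 for Cybb, 0.42 for Ncf1, 0.17 for Rac2, 0.41 for Sod1, 0.29 for Sod2 and 0.27 for Cat. With the percentile over detected probes it was 0.0771 for Cyba, 0.0725 for Ncf4 and 0.0440 for Rac2. With quantile normalization it was 0.0746 for Cyba, 0.0529 for Ncf4 and 0.0252 for Rac2. With the local trend removed it was 0.0641 for Rac2. The normexp offset narrows log2 differences most in faint spots. Beyond that, the cause of these shifts was not tested. Leaving out 1 replicate gave SDs of 0.22 to 0.45 for Cybb (lowest without replicate 4), 0.0649 to 0.13 for Rac2 (lowest without replicate 4) and 0.0713 to 0.14 for Sod2 (lowest without replicate 3). The median SD of all genes was 0.43 with no filter on dim probes. Cybb, Sod2 and Cat had the same highest and lowest array in all 6 other scalings and corrections; Cyba, Ncf1, Ncf4, Rac2 and Sod1 did not. Signals of Cybb and Cat near background limit what their levels can show.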
